A study of Mus musculus with 6 samples.

Results

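The response of Elovl3 and Cyp4a12a to activation of FXR (farnesoid X receptor), a nuclear receptor that senses bile acids, was examined in wild type C57BL/6J mice, all adult. They are 2 of the 87 genes that could be paired with a probe set, and each was represented by 1 probe set, taken where the gene symbol in the authors' deposited table was exactly Elovl3 or Cyp4a12a. Both genes were chosen by their lower levels in these same GW4064 livers, since that table lists only probe sets selected on this contrast at 1.5-fold and an unadjusted p of 0.05. Their differences are therefore given as a description, with no test. One group of 3 mice was given GW4064, a synthetic FXR agonist, at 100 mg per kg body weight, and another group of 3 mice was given vehicle. Dosing was the same in both groups, with 3 doses spread over a morning (8 am), an evening (6 pm) and the next morning (8 am). Food was withheld during the night between the last 2 doses, and RNA comes from livers harvested 2 hours after the morning dose that ended the treatment. The sex of the mice is not given in the sources used here. Total RNA of whole liver was hybridized to 1 Affymetrix array per mouse, and levels are log2 values of a probe set.

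Elovl3 encodes an enzyme of the endoplasmic reticulum that carries out the first, condensing step of fatty acid elongation, by which saturated and monounsaturated fatty acids are lengthened to very long chains. In mice it is known from skin, from brown fat in the cold and from liver, where its level is higher in males and varies over the day. Cyp4a12a encodes a cytochrome P450 that places a hydroxyl group on the terminal (omega) carbon of fatty acids, arachidonic acid among them, and is known in mice as the male-specific, androgen-dependent member of its subfamily in kidney and liver. Elongation builds a fatty acid chain, whereas omega-hydroxylation marks its end for oxidation to a dicarboxylic acid or yields a lipid mediator.

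The livers of GW4064-treated mice had lower levels of Elovl3 than those of vehicle-treated mice. The Elovl3 probe set (1420722_at; chromosome 19, band C3, as the authors' deposited table places the gene) was at 9.36, 10.19 and 10.83 in GW4064 replicates 1, 2 and 3, against 12.33, 11.64 and 11.84 in vehicle replicates 1, 2 and 3. The groups did not overlap, and the highest GW4064 liver lay 0.81 below the lowest vehicle liver. The level averaged 10.13 ± 0.74 in GW4064 livers and 11.94 ± 0.36 in vehicle livers (SD, n = 3 each). The difference on the log2 scale was -1.81 (SE 0.34), which is 3.50-fold lower. In whole liver, fewer cells that express a gene and less RNA of it per cell cannot be told apart.

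Cyp4a12a was also lower in GW4064 livers, by less. Its probe set (1424352_at; chromosome 4, band D1) was at 10.94, 11.22 and 11.43 in GW4064 replicates 1, 2 and 3, against 11.78, 11.90 and 11.82 in vehicle replicates 1, 2 and 3. Again the groups did not overlap, with 0.34 between the highest GW4064 and the lowest vehicle liver. The level averaged 11.20 ± 0.25 in GW4064 livers and 11.83 ± 0.06 in vehicle livers (SD, n = 3 each). The difference was -0.64 (SE 0.13), which is 1.55-fold lower. This lies close to the 1.5-fold limit that the authors give, which is 0.585 on the log2 scale.

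**Figure D1:**
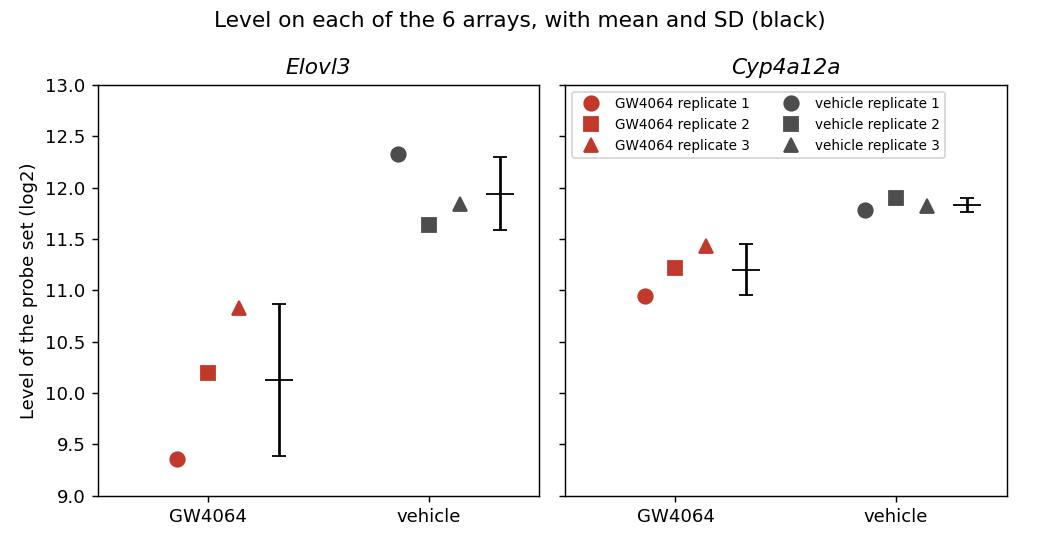
Log2 level of the Elovl3 (left) and Cyp4a12a (right) probe sets on each array, with GW4064 and vehicle on the horizontal axis; marker shapes give the replicate number and black bars the mean and SD of 3 mice. All 3 GW4064 livers lie below all 3 vehicle livers in both panels, by 0.81 for Elovl3 and 0.34 for Cyp4a12a; levels of different probe sets are not comparable with each other.

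Neighbouring genes bear on the identity of these signals. In RefSeq (GRCm38.p6) Cyp4a12b is the next protein-coding gene beyond Cyp4a12a on chromosome 4, and Cyp4a29 the one before it. Cyp4a12a and Cyp4a12b are close copies that share the older name Cyp4a12, so a probe set may detect both, and their parts in this value were not tested. Elovl3 lies between Nolc1 and Pitx3, and its annotated span overlaps that of Pitx3, which encodes a transcription factor of the eye and of dopamine neurons; the strand of the probes was not examined.

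Both members had all GW4064 livers below all vehicle livers, 2 of 2, as did 1620 of the 22626 tested probe sets or 7.16%. Nothing is read from this count, since both genes were selected on this contrast. Over the whole arrays, 0.619% of the probe sets (140) were lower at 1.5-fold and an unadjusted p under 0.05 by limma, and 1.25% (283) differed so in either direction. At an adjusted p under 0.05 there was no call on the arrays (0 of 22626, 0%). The smallest adjusted p by limma was 0.284. Before adjustment, 1985 probe sets had a p under 0.05 by limma and 1427 by the methods' t-test, which also left 0 after adjustment. The difference of Elovl3 was among the largest lower ones on the arrays, with 7 of the 22626 probe sets lying further below, 3 of them among the 50 lower probe sets of the authors' deposited table. Cyp4a12a had 166 probe sets further below it, 33 of them in that table. These places are a description too, since both genes were selected on this same difference.

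**Figure D2:**
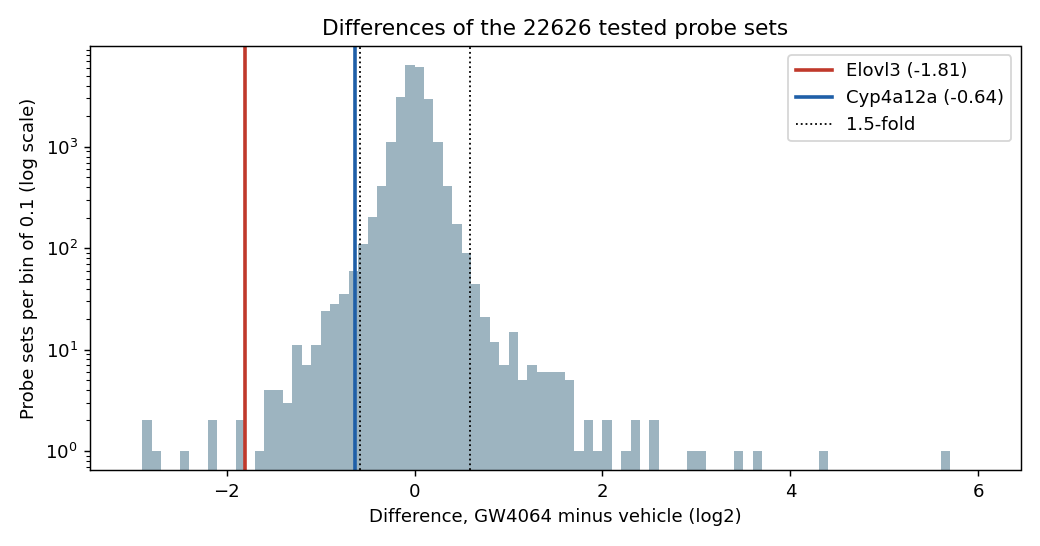
Number of probe sets (log scale) by difference of GW4064 minus vehicle, in bins of 0.1 on the log2 scale, for all 22626 tested probe sets; vertical lines mark Elovl3, Cyp4a12a and, dotted, the 1.5-fold limits. Elovl3 at -1.81 lies in the sparse lower tail, whereas Cyp4a12a at -0.64 lies just beyond the 1.5-fold limit.

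The spread among mice was next compared between the 2 genes. In GW4064 livers the levels of Elovl3 spanned 1.47, and in vehicle livers 0.69. For Cyp4a12a the span was 0.50 in GW4064 livers and 0.13 in vehicle livers. Thus the treated livers spread more widely for both genes, by 2.13 times for Elovl3 and 3.94 times for Cyp4a12a, with 3 mice behind each span. Vehicle livers differed between the genes. The SD of Elovl3 over vehicle livers exceeded that of 97.4% of all tested probe sets, whose median was 0.111, whereas the SD of Cyp4a12a exceeded that of 23.5%. Over GW4064 livers the shares were 99.3% for Elovl3 and 88.9% for Cyp4a12a, around a median SD of 0.114. A small SD within groups favours selection by an unpaired test, so these spreads are not free of the choice of the genes.

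The same GW4064 mice stood lowest and highest for both genes. Relative to the vehicle mean, Elovl3 lay at -2.58, -1.75 and -1.10 in GW4064 replicates 1, 2 and 3, and Cyp4a12a at -0.90, -0.61 and -0.40. In each case GW4064 replicate 1 was farthest below vehicle and GW4064 replicate 3 nearest to it. In vehicle livers the genes did not share an order, since vehicle replicate 1 was the highest for Elovl3 and the lowest for Cyp4a12a. The vehicle levels of Cyp4a12a spanned only 0.13, so little can be read from their order. The order seen in the GW4064 livers was common in the authors' deposited table. Replicate 1 was lowest and replicate 3 highest in 32 of the 50 lower probe sets of that table, against 19.6% of all tested probe sets. Replicate 1 was the lowest in 42 of the 50 and replicate 3 the highest in 36. The array medians lay between 5.87 and 5.89. Nr0b2, which encodes a corepressor induced by FXR and was higher in GW4064 livers, ran along with this order, at 10.58, 9.21 and 8.87 in GW4064 replicates 1, 2 and 3, against 7.54, 7.74 and 8.02 in vehicle replicates 1, 2 and 3. Its part in the levels of Elovl3 and Cyp4a12a was not tested.

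Because of these mice, the size of each difference depended on which arrays were used. Without GW4064 replicate 1, Elovl3 differed by -1.42 (SE 0.24) or 2.68-fold lower, and without GW4064 replicate 3 by -2.16 (SE 0.27) or 4.47-fold lower. Leaving out a vehicle array gave -1.61 to -1.96 for Elovl3. Cyp4a12a differed by -0.51 (SE 0.10) without GW4064 replicate 1, which is 1.42-fold lower and no longer reaches 1.5-fold. Without GW4064 replicate 3 it differed by -0.75 (SE 0.12) or 1.69-fold lower. Since neither gene overlapped between the groups, leaving out an array could not have turned the direction.

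**Figure D3:**
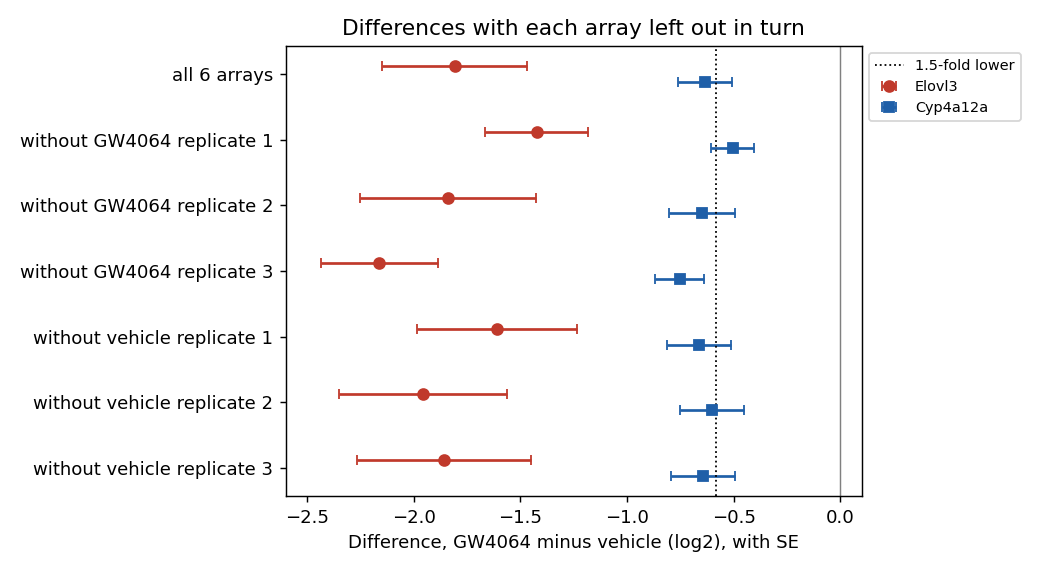
Difference of GW4064 minus vehicle (log2, with the SE from limma) for Elovl3 and Cyp4a12a on all 6 arrays and with each array left out in turn; the dotted line marks 1.5-fold lower. Elovl3 stays between -2.16 and -1.42, and Cyp4a12a falls short of the line only without GW4064 replicate 1, at -0.51.

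Genes with a pattern like that of each member over the 6 arrays were sought among the other 86 genes with a paired probe set, by Pearson's r of the log2 values. All these genes had been selected on the same contrast and the groups part in 2 clusters, so r is given as a description. The 4 genes most like Elovl3 were Slc19a2, a thiamine transporter gene (r = 0.989), Cyp8b1, whose hydroxylase directs bile acid synthesis towards cholic acid (0.987), the transcription factor gene Elk3 (0.986) and the DNA replication gene Mcm10 (0.984). The 5 most like Cyp4a12a were Epb41l2, a gene of the membrane skeleton (0.994), Csad, whose enzyme acts in taurine synthesis (0.983), the small heat shock protein gene Hspb1 (0.981), Slc19a2 (0.981) and Cyp8b1 (0.972). Slc19a2 and Cyp8b1 were thus on both lists. Between Elovl3 and Cyp4a12a r was 0.955, and each stood below the genes named as most like the other, with Cyp4a12a at place 11 in the ranking for Elovl3 and Elovl3 at place 10 in that for Cyp4a12a.

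Cyp8b1 had the same order of GW4064 livers as Elovl3 and a larger difference. It was at 8.00, 9.67 and 10.33 in GW4064 replicates 1, 2 and 3, against 12.10, 11.67 and 11.49 in vehicle replicates 1, 2 and 3. In both genes vehicle replicate 1 was the highest of the 6 livers and GW4064 replicate 1 the lowest. Slc19a2 was closer in size to Cyp4a12a, at 7.76, 8.06 and 8.20 in GW4064 replicates 1, 2 and 3, against 8.64, 8.55 and 8.61 in the vehicle livers in the same numbering. Its difference was -0.59 (SE 0.12), beside the -0.64 of Cyp4a12a.

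The genes around both enzymes were then examined from 12 lists that held 200 genes. None of the 12 other genes of the elongation cycle, such as Elovl5, Elovl6, Hsd17b12 and Tecr, had a paired probe set. The same held for the 20 other Cyp4 and related fatty acid hydroxylase genes, Cyp4a10 and Cyp4a14 included, and for the lists of desaturases, lipogenesis, PPAR-alpha targets, growth hormone signalling, P450 electron transfer, and the other male-biased and the female-biased liver genes. A probe set was paired with a gene only where the authors had listed it as changed, so these 9 lists without a paired gene are not analysed here and say nothing about change or its absence. None of the 50 genes in 9 lists of cell type markers was paired either, so the labelled tissue was not checked against hepatocyte markers such as Alb and Ttr.

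Among 27 genes of peroxisomal fatty acid oxidation and acyl-CoA handling, 2 had a paired probe set and they differed in opposite directions. Scp2, the gene of a sterol carrier and peroxisomal thiolase, was at 8.36, 8.62 and 8.71 in GW4064 replicates 1, 2 and 3, against 8.86, 9.62 and 9.17 in vehicle replicates 1, 2 and 3 (difference -0.66, SE 0.19). Pecr, the gene of a peroxisomal enoyl-CoA reductase, was at 7.00, 6.72 and 6.10 in the GW4064 livers, against 5.41, 5.55 and 5.94 in the vehicle livers (difference 0.98, SE 0.23). Of the 16 genes of the FXR axis, 2 were paired, Cyp8b1 at -2.42 (SE 0.51) and Nr0b2 at 1.79 (SE 0.39). Of 20 genes of the circadian clock and its output, 2 were paired and both were higher, the core clock gene Per2 at 1.10 (SE 0.23) and Usp2, which encodes a rhythmic deubiquitinase, at 1.33 (SE 0.29). By limma, 4 of these 6 genes were higher and 2 lower at 1.5-fold and an unadjusted p under 0.05. Of all 22626 tested probe sets, 283 or 1.25% met that threshold in either direction. The adjusted threshold was passed by 0 of 6 genes and by 0 of the 22626 probe sets. All 6 were selected on these arrays, so the counts carry no further evidence.

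**Figure D4:**
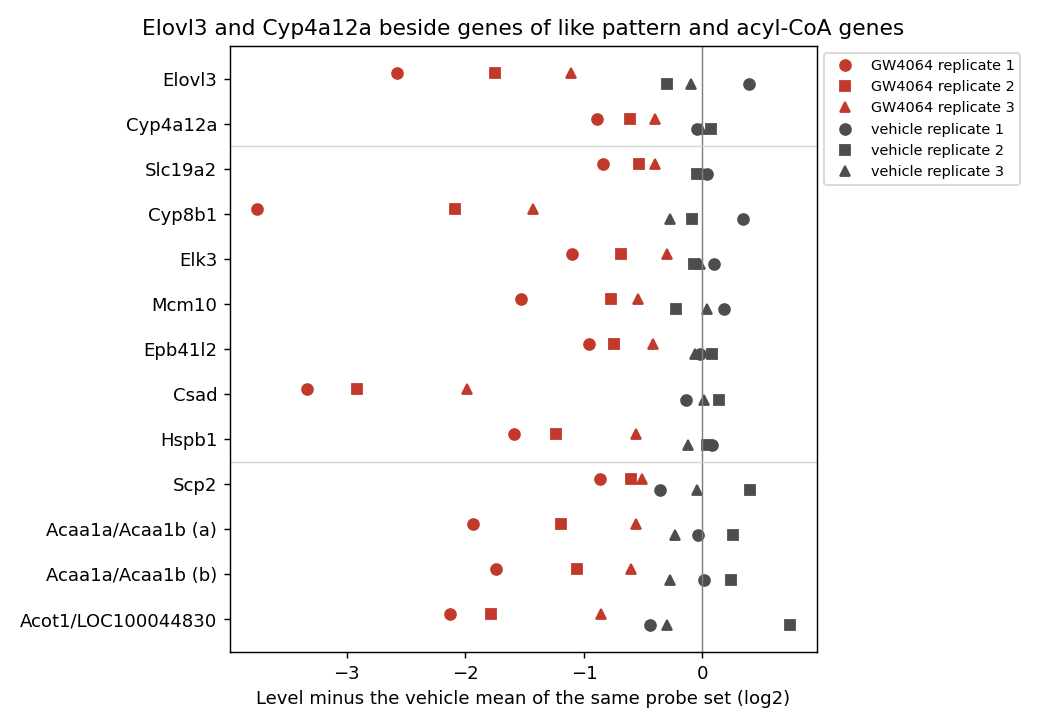
Level of each mouse minus the vehicle mean of the same probe set (log2) for Elovl3 and Cyp4a12a (top), the genes most like either of them (middle), and acyl-CoA genes with lower levels (bottom, Scp2 and probe sets with several symbols; a and b are 2 probe sets of one pair of symbols; Pecr, which was higher, is not plotted); red markers are GW4064 and grey markers vehicle livers. GW4064 replicate 1 is farthest to the left in each of the plotted rows, at -2.58 for Elovl3 and -0.90 for Cyp4a12a.

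Further acyl-CoA genes were present only on probe sets with several symbols and were picked after their values were seen. Acaa1a and Acaa1b, which encode peroxisomal thiolases, shared a probe set (1416946_a_at) at 9.63, 10.38 and 11.01 in GW4064 replicates 1, 2 and 3, against 11.53, 11.83 and 11.34 in the vehicle livers in the same numbering. Their difference was -1.23 (SE 0.31), between those of Cyp4a12a and Elovl3. The probe set of Acot1, an acyl-CoA thioesterase gene, and LOC100044830 differed by -1.59 (SE 0.38). Ppp1r3c, a gene of glycogen storage, was named outside the rules given below for choosing genes. The authors' deposited table places it in the same chromosome band as Elovl3. It differed in the other direction, by 1.24 (SE 0.27).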

How the data were processed

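Expression was measured in 6 mouse livers, 3 per group, on 1 array each. The authors deposited log2 expression levels per probe set, already normalized between arrays and made with Affymetrix Power Tools according to the methods; in the sources used here, the summarisation, its version and the annotation are not given. Mouse Gene 1.0 ST is the array that the labels name, but the identifiers of the probe sets, and the deposited table's header, belong to the Mouse430A_2 design. That table, the authors' own comparison, holds 110 probe sets with a linear fold and its direction. These columns were not used. In the log2 values used here, the listed probe set 1451341_s_at was at 1.49-fold. The deposited table served to name genes, with 99 probe sets of 1 symbol (87 genes), 7 of several and 4 of none. It also gave the chromosome bands, the genes ranked by likeness and the 50 lower probe sets whose order was counted. Both Entrez identifiers of Elovl3 and Cyp4a12a were found in RefSeq GRCm38.p6. No genome build is stated for the files, so no base positions are given.

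After 64 of the 22690 probe sets were set aside as controls, GW4064 was compared with vehicle over 22626 with limma (version 3.58.1, R version 4.3.3; functions lmFit and eBayes, a two-sided test, group as the only term, Benjamini-Hochberg adjustment). Differences are GW4064 minus vehicle with the moderated SE. The script was tested on simulated data. With 3 mice a group, the smallest two-sided p of an exact permutation test is 0.1. The number of arrays limits the precision. The labels name separate mice. Samples were grouped and numbered from their titles.

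Genes named are both members, the 5 genes of highest Pearson's r with each (the fifth for Elovl3 is not reported here), and, per list, up to 4 genes with the smallest unadjusted p, a gene with several probe sets being given by the one of highest mean. Cyp8b1, Nr0b2, Scp2 and Csad were named for comparison. The suffix _s_at, as for Epb41l2, marks possible detection of other genes. The members, lists and tests were chosen with earlier results of these data known. Alternatives were other normalizations, array weights, another variance prior, a filter on dim probe sets, a replicate block, the methods' t-test, group medians and each array left out.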

Additional observations from a re-analysis of the deposited data

How the results depend on the processing

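Elovl3 and Cyp4a12a were lower in GW4064 livers under all 13 alternatives of each difference, at -2.16 to -1.42 and -0.75 to -0.51, and each moved by less than the SD within groups, pooled over both groups (0.580 for Elovl3, 0.183 for Cyp4a12a). Most of these alternatives could not have turned the direction. Since the groups did not overlap, this holds for left-out arrays, array weights, group medians and unlogged means. The replicate block and the filter on dim probe sets leave the difference itself unchanged. Cyp4a12a was under 1.5-fold only without GW4064 replicate 1. The ratio of unlogged means, an alternative chosen after seeing the data, gave -1.72 and -0.62. The replicate numbers of the titles were not taken to pair mice. Deviations of same-numbered mice correlated at -0.00194, 0.0533 and -0.0337, and 2 of the 6 livers correlated best with their own number. With so few mice, these values cannot exclude a pairing. With the replicate block the differences were -1.81 (SE 0.35) and -0.64 (SE 0.11), and 0 and 304 probe sets met the adjusted and the 1.5-fold threshold. Leaving out 1 array gave 0 to 70 probe sets at an adjusted p under 0.05, all but the count without GW4064 replicate 3 being 0, and 158 (GW4064 replicate 1 omitted) to 573 (GW4064 replicate 3 omitted) at 1.5-fold, which 283 met on all 6 arrays. The methods' t-test gave 97; the cause was not tested. Genes of the lists at that threshold numbered 5 or 6. Neither member is dim enough to be dropped by the filter. Signal over background is not given in the files used here.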

Other observations

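Of all 110 probe sets in the authors' deposited table, the one most like Cyp4a12a over the 6 arrays had no gene symbol (1448986_x_at, r = 0.997). It was at 7.81, 8.59 and 9.61 in GW4064 replicates 1, 2 and 3, against 10.62, 11.06 and 10.77 in vehicle replicates 1, 2 and 3, a difference of -2.15 (SE 0.38). Like Cyp4a12a, it was highest in vehicle replicate 2 and lowest in GW4064 replicate 1, and its suffix marks possible detection of several transcripts. The shared probe sets of Acaa1a and Acaa1b correlated with Cyp4a12a at 0.980 and 0.979, and with Elovl3 at 0.937 and 0.941. These probe sets were picked after their values were seen, and their r values rest on 2 groups that do not overlap.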
